A study of Mus musculus with 8 samples.

Results

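The genes described here present peptide antigens at the cell surface or prepare peptides for that purpose. They are 10 genes: H2-K1, H2-D1, B2m, Tap1, Tap2, Psmb8, Psmb9, Cd74, H2-Aa and H2-Ab1. Members were found by matching the transcript accession of each probe on the array to the RefSeq gene table, which gave 16 probes among 56605. The table named 22911 genes on the array in all. Of the 16 probes, 13 probes of 9 genes were retained as well above background on every array of at least 1 group, and H2-Aa had no retained probe.

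MHC class I molecules consist of a heavy chain, such as H2-K or H2-D, and beta-2 microglobulin. They carry peptides that the proteasome cuts in the cytosol and that the TAP transporter moves into the endoplasmic reticulum. MHC class II molecules are dimers of an alpha and a beta chain, held by the invariant chain (Cd74) until they bind peptides from the endosome. In the healthy retina, class I expression is low in neurons, and class II expression is mostly attributed to resident myeloid cells and a few vessel-associated cells. Interferons are the best known inducers of both pathways.

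Whole retinas of aged mice were hybridized to 8 one-color Agilent arrays, 4 with samples labelled homozygous knockout for Mrp4 (Abcc4) and 4 with wild-type samples. The labels give an age of 46 to 55 weeks and the methods 45 to 55 weeks, and the methods place the knockout on the C57BL/6J background. The labels name no treatment, and Mrp4 encodes MRP4, an efflux transporter of the cell membrane. The methods name tissue from 3 mice without saying whether each sample pooled them, so p-values measure only the spread between these samples. All 8 arrays lay on 1 slide with each label in a row of its own, so row and genotype cannot be told apart. Fewer cells of a type and less RNA per cell cannot be told apart in whole tissue either.

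The targeted gene went against its label. Abcc4 had processed signals of 2186, 1249.9, 1732 and 2030.1 on arrays 1 to 4 labelled Mrp4-null and of 107, 159.9, 76.8 and 108 on wild-type arrays 1 to 4. The log2 fold change was 3.92 (SE 0.14, limma adjusted p = 1.36e-05), higher under the knockout label, and where the probe lies relative to the deleted sequence is not given in the sources used here. The arrays are therefore called by their labels throughout, and every direction below is that of the label. Xist exceeded background on each of the 4 arrays with the Mrp4-null label and on 2 of the wild-type arrays, while 4 Y-linked genes did so on 3 wild-type arrays and nowhere under the Mrp4-null label. Of the wild-type arrays, 1 had both, 1 had Xist alone and 2 had the Y-linked genes alone, so those samples did not all come from 1 animal. Sex was thus unevenly spread over the labels, and no contrast below can fully separate it from genotype. The rod gene Gnat1 was at normalized log2 signals of 17.28 to 17.44 over the 8 arrays. Signals at the 75th percentile ran from 497 to 786 over the arrays, and the third array labelled Mrp4-null, at 725, was inside the range of the other 7.

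Of the 10 genes, 8 lie on chromosome 17 in the mouse MHC, with B2m on chromosome 2 and Cd74 on chromosome 18. Counted among protein-coding genes of the RefSeq table from H2-K1, Psmb9, Tap1, Psmb8 and Tap2 are neighbours at positions 11, 12, 13 and 14. H2-Ab1 follows at position 16 and H2-Aa at position 17, and H2-D1 is at position 82.

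Windows of 250 bases upstream of a transcript start were available for 7 of the 10 genes. They were searched on both strands for letters that match the core of known elements of MHC promoters. TGACG stands for the X2 box and ATTGG for the Y box of the conserved SXY module, GGGNNTTCC for an NF-kB-like site and GAAA, any 2 bases and GAAA again for an interferon-stimulated response element. TGACG was in 6 of the 7 genes and in 17.8% of 32851 windows of the same length, and ATTGG was in 6 of the 7 genes and in 33.8% of the windows. The windows of Tap1 and Psmb9 overlap, so the same letters count for both genes. H2-K1 had more than 1 window, so counts by gene and shares by window are not alike. GGGNNTTCC was in 3 genes, against 4.98% of the windows, and the spaced GAAA repeat was in 1 gene, B2m, against 2.98%. TGACG followed by ATTGG on the same strand, with starts 24 to 26 bases apart, was in H2-K1, H2-D1, B2m and H2-Aa, against 62 windows in all (0.189%). That spacing was chosen with these windows in view, and a match describes letters, not binding.

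The stretches that hold these matches are printed below from the RefSeq windows (GRCm38.p6), 5′ to 3′ along the strand named. Psmb8 had a window with none of these matches, and its highest signal was on the same array as that of the genes printed (below). Whether the matches bear on the signals was not tested. Capitals mark the matches, CCAAT being ATTGG on the other strand. In H2-Aa the capitals TGACGTCA are TGACG and its reverse complement overlapping. The last line is the interval between the divergent starts of Psmb9 and Tap1, which share it.
H2-K1, chr17:34000348-34000497, minus strand: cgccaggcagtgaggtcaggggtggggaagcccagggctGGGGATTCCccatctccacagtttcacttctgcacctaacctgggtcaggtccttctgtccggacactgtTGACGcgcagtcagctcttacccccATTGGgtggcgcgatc
H2-D1, chr17:35262894-35263093, plus strand: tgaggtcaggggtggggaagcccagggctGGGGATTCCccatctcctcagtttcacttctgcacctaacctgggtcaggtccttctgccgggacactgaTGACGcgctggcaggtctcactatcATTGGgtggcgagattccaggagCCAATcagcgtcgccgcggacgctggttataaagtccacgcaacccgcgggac
B2m, chr2:122147537-122147686, plus strand: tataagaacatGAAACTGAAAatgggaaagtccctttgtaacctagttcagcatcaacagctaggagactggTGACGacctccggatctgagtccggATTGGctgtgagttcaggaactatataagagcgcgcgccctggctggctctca
H2-Aa, chr17:34287824-34287973, minus strand: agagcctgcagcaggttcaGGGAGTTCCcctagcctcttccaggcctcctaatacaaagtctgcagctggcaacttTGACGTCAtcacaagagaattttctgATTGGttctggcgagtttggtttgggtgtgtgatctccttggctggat
Psmb9-Tap1 interval, chr17:34187331-34187555, plus strand: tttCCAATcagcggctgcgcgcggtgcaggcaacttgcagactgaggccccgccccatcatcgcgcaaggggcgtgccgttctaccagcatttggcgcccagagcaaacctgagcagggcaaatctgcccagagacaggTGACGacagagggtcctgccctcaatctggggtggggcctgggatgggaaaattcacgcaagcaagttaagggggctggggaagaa

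The level of every member probe is plotted by array, since a single array set the pattern of nearly all of them. All 13 retained probes had their highest normalized signal on the third array labelled Mrp4-null, against 10.7% of all probes with a value on 8 arrays. For 11 of the 13, from 7 genes, that array lay more than 2-fold above each of the other 7, by 2.01-fold to 4.30-fold over the next highest array. Among all probes this held for 183 of 37075 (0.494%). The third array was picked out after its values were seen, so these counts describe it and were not tested.

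**Figure D1:**
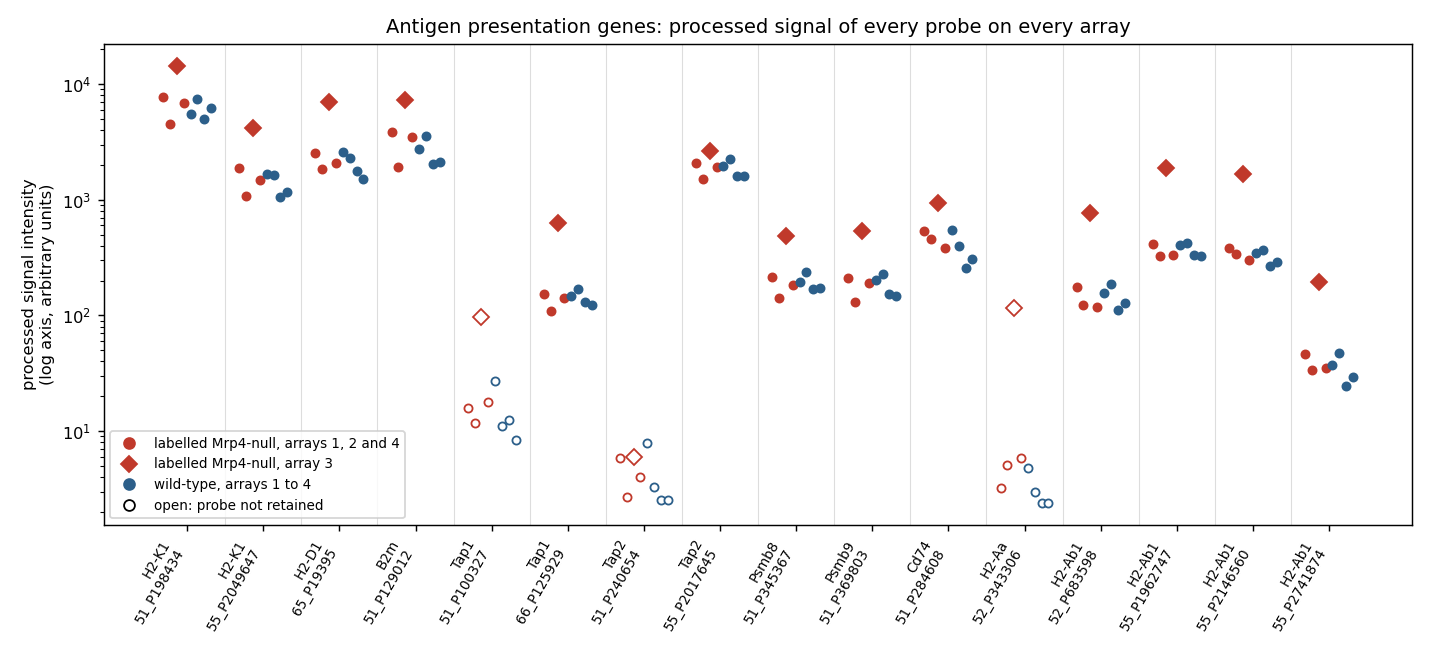
Processed signal (log axis, arbitrary units, before normalization between arrays) of the 16 probes of the 10 genes on the 8 arrays. Red marks the arrays labelled Mrp4-null, with a diamond for the third, blue marks wild-type arrays, and open symbols are probes that were not retained. The diamond is the highest point of 15 of the 16 probes, and the other 7 arrays of both labels overlap.

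Before normalization, 15 of the 16 probes also had their highest processed signal on that array, the exception being a Tap2 probe below background. The other 7 arrays each had between 0 and 9 probes more than 2-fold above every other array, and none of these was a member.

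**Figure D2:**
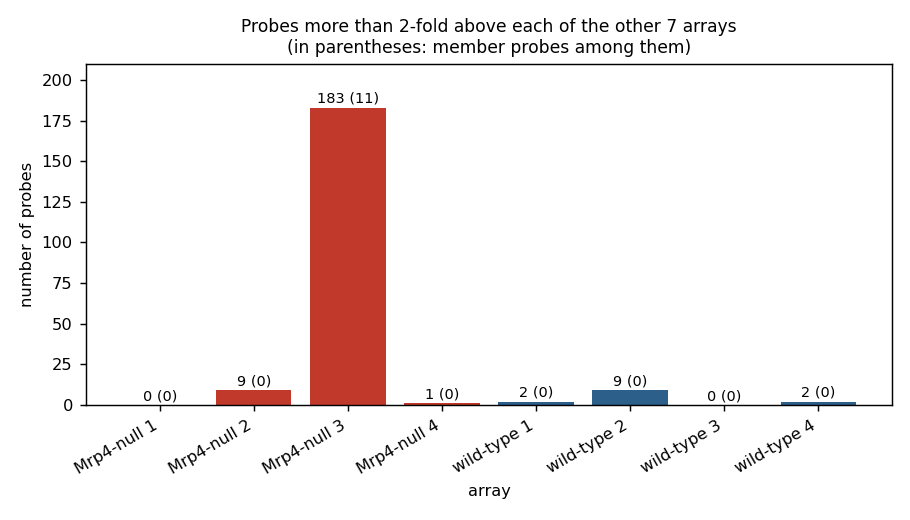
Bars give, for each array, the number of probes whose normalized signal was more than 2-fold above each of the other 7 arrays, among 37075 probes. Red bars are arrays labelled Mrp4-null and blue bars wild-type, and the number in parentheses counts probes of the 10 genes. The third array labelled Mrp4-null held 183 such probes, 11 of them members, and no other array held more than 9.

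The class I heavy chains H2-K and H2-D bind peptides for CD8 T cells. H2-K1 was measured by 2 probes. Probe A_51_P198434 had processed signals of 7684, 4521, 14372 and 6869 on arrays 1 to 4 labelled Mrp4-null, and of 5528, 7477, 4964 and 6183 on wild-type arrays 1 to 4. The third array stood above the rest, and the other 3 with its label spanned the wild-type values. Between the labels, the log2 fold change was 0.32 (SE 0.26, 95% interval -0.27 to 0.91, adjusted p = 1.00). Probe A_55_P2049647 had signals of 1869, 1079, 4209 and 1488 under the Mrp4-null label and of 1663, 1639, 1061 and 1168 in wild-type retinas. Both probes of H2-K1 thus had the same highest array. The second probe had a log2 fold change of 0.41 (SE 0.32, adjusted p = 1.00).

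H2-D1, read by probe A_65_P19395, had processed signals of 2542, 1830.5, 6981 and 2092 on arrays 1 to 4 labelled Mrp4-null. The wild-type signals were 2586, 2303, 1785 and 1521. Without normalization, the third array was the only one above the wild-type range. After normalization the second array with its label was above that range too, at a log2 signal of 11.26 against at most 11.25. H2-D1 differed between the labels by 0.46 on the log2 scale (SE 0.37, 95% interval -0.38 to 1.30, adjusted p = 1.00). Class I heavy-chain genes are closely related in sequence, and hybridization of one transcript to the probe of another was not tested.

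B2m encodes beta-2 microglobulin, the light chain that class I molecules need to reach the surface. Its probe, A_51_P129012, had processed signals of 3857, 1916, 7324 and 3508 under the Mrp4-null label and of 2756, 3566, 2029.9 and 2115 in wild-type retinas. The third array was again the highest, and the second array with that label was below all 4 wild-type arrays before normalization but inside their range after it. The normalized log2 signals of 11.66 and 11.60 on arrays 1 and 4 with that label were above the highest wild-type value of 11.51. The log2 fold change of 0.49 (SE 0.28, 95% interval -0.14 to 1.12) did not pass the test (adjusted p = 0.934).

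Psmb8 and Psmb9 encode catalytic subunits that replace their constitutive counterparts in the immunoproteasome, which favours peptides that fit class I molecules. Psmb8 (probe A_51_P345367) had processed signals of 215, 143, 486 and 183 under the Mrp4-null label, against 194, 236, 169.6 and 172 in wild-type retinas. Psmb9 (probe A_51_P369803) had signals of 213, 132, 534 and 189 under the Mrp4-null label and of 204, 229, 152 and 148 in wild-type retinas. In both genes the third array was above all others, and the lowest signal before normalization was on the second array with its label, which also had the lowest 75th percentile of signal. After normalization, the lowest array for Psmb8 was the fourth with that label. Their log2 fold changes were 0.16 (SE 0.28) for Psmb8 and 0.26 (SE 0.31) for Psmb9, each with adjusted p = 1.00.

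The constitutive subunits Psmb5, Psmb6 and Psmb7 of the same proteasome, named after their values were seen, did not share this pattern. On the third array labelled Mrp4-null the normalized log2 signal was 12.16 for Psmb5, against 12.07 to 12.53 on the other 7 arrays. It was 14.92 for Psmb6, against 14.92 to 15.18, and 11.95 for Psmb7, against 11.83 to 12.10. None of the 3 was highest on that array, while the normalized log2 signal of Psmb8 was 8.74 there and 7.41 to 7.71 elsewhere. The third immunoproteasome subunit, Psmb10, was at 11.94 there and at 11.32 to 11.79 on the others.

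Tap1 and Tap2 form the transporter that carries peptides into the endoplasmic reticulum. Tap1 probe A_66_P125929 had processed signals of 152, 109.6, 633 and 142 on arrays 1 to 4 labelled Mrp4-null and of 148, 171, 131 and 122 on wild-type arrays. The third array was 3.53-fold above the next in normalized signal. For this probe the log2 fold change was 0.37 (SE 0.44, 95% interval -0.64 to 1.38, adjusted p = 1.00). A further Tap1 probe, A_51_P100327, was not retained, being well above background on 3 arrays labelled Mrp4-null and on 1 wild-type array. Its processed signal was 8.43 to 26.9 on 7 arrays and 96.6 on the third with the Mrp4-null label.

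Tap2 varied least. Its probe A_55_P2017645 had processed signals of 2066, 1502.5, 2663 and 1916 under the Mrp4-null label and of 1942, 2232, 1594 and 1598 in wild-type retinas. The third array was highest here too, but by 1.21-fold over the next array in normalized signal. The log2 fold change was 0.07 (SE 0.13, 95% interval -0.21 to 0.36, adjusted p = 1.00). The interval lies inside the 1.5-fold used for calls (0.58 on the log2 scale), which holds for no other member. Its other probe, A_51_P240654, was well above background on none of the 8 arrays, with signals of 2.53 to 7.83.

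Of the class II genes, H2-Ab1 (the beta chain of the I-A molecule, which presents to CD4 T cells) was measured by 4 probes. Probe A_55_P1962747 had processed signals of 412, 326, 1878 and 334 under the Mrp4-null label, against 403, 423, 331 and 324 in wild-type retinas. Probe A_55_P2146560 had signals of 382, 336, 1668 and 299 under the Mrp4-null label and of 344, 367, 267 and 291 in wild-type retinas. In both, 7 arrays were close to each other and the third array labelled Mrp4-null was far above them. Probe A_52_P683598 had 175, 124, 770.4 and 119 against 155, 186, 110.3 and 127. Probe A_55_P2741874 had 46.5, 33.7, 196 and 35.2 against 37.2, 47.4, 24.5 and 29.5. All 4 probes put the third array 3.60-fold to 4.30-fold above the next in normalized signal. Their log2 fold changes lay between 0.47 (SE 0.49) and 0.64 (SE 0.47), each with adjusted p = 1.00, and the value of probe A_55_P2741874 was 0.34 with normexp background correction.

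H2-Aa encodes the alpha chain that pairs with the H2-Ab1 product. Its single probe, A_52_P343306, exceeded background on 1 array only, the third labelled Mrp4-null. The processed signals were 3.25, 5.12, 116 and 5.82 under the Mrp4-null label and 4.84, 2.96, 2.38 and 2.39 in wild-type retinas. Since 7 of the 8 arrays gave no signal above background, no fold is given, and the probe did not pass the filter on dim probes. With no such filter it was tested and not called (limma adjusted p = 0.997).

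Cd74 encodes the invariant chain. Its probe, A_51_P284608, had processed signals of 532, 459, 944 and 385 on arrays 1 to 4 labelled Mrp4-null and of 546, 399, 257 and 310.2 on the wild-type arrays. The third array was the highest, by 1.42-fold over the next in normalized signal, and the remaining arrays of both labels were spread over a range wider than for the other members. The log2 fold change was 0.50 (SE 0.27, 95% interval -0.11 to 1.11, adjusted p = 0.913), and it was 0.29 with the Xist signal as a covariate.

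Between the labels, none of the 10 genes was called changed: 0 of 13 probes by limma at 1.5-fold or more with an adjusted p under 0.05, where 0.545% of all 37085 retained probes were called. At an unadjusted p under 0.05 the count was also 0 of 13 (6.46% of all probes), and a local pooled error test, the kind the methods name, called 0 as well. Calls by that test here needed an adjusted p, while the methods name no adjustment of its p-value. The largest member log2 fold change by that test was 0.57 (Cd74), lower than 1.5-fold. The groups of arrays overlapped for all 13 probes, and they did not overlap for 4.79% of all probes. For only 13 probes, several of them of the same gene, these counts of 0 are near the shares of all probes. All 13 log2 fold changes were above 0, with a median of 0.46 against -0.01 over all retained probes. Without the third array labelled Mrp4-null, 7 of 13 were above 0, the median was 0.03 and again 0 of 13 had an unadjusted p under 0.05. Leaving out any of the other 7 arrays gave medians between 0.39 and 0.58.

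The spread within the labels differed through the third array. Over the 13 probes, the standard deviation of the normalized log2 signal was 0.25 to 1.19 among the 4 arrays labelled Mrp4-null and 0.06 to 0.29 among the 4 wild-type arrays, and it was the larger in the former for each probe. Without the third array, the standard deviation under the Mrp4-null label was 0.01 to 0.39, larger than in wild-type retinas for 8 of 13 probes. With all 8 arrays, the 95% interval of 12 of 13 probes reached above the 1.5-fold used for calls and that of 3 reached below its inverse, so differences of that size lay within the intervals. Without the third array, the interval of 1 probe, Cd74, reached beyond 1.5-fold (0.28, interval -0.24 to 0.79), and those of the other 12 did not.

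**Figure D3:**
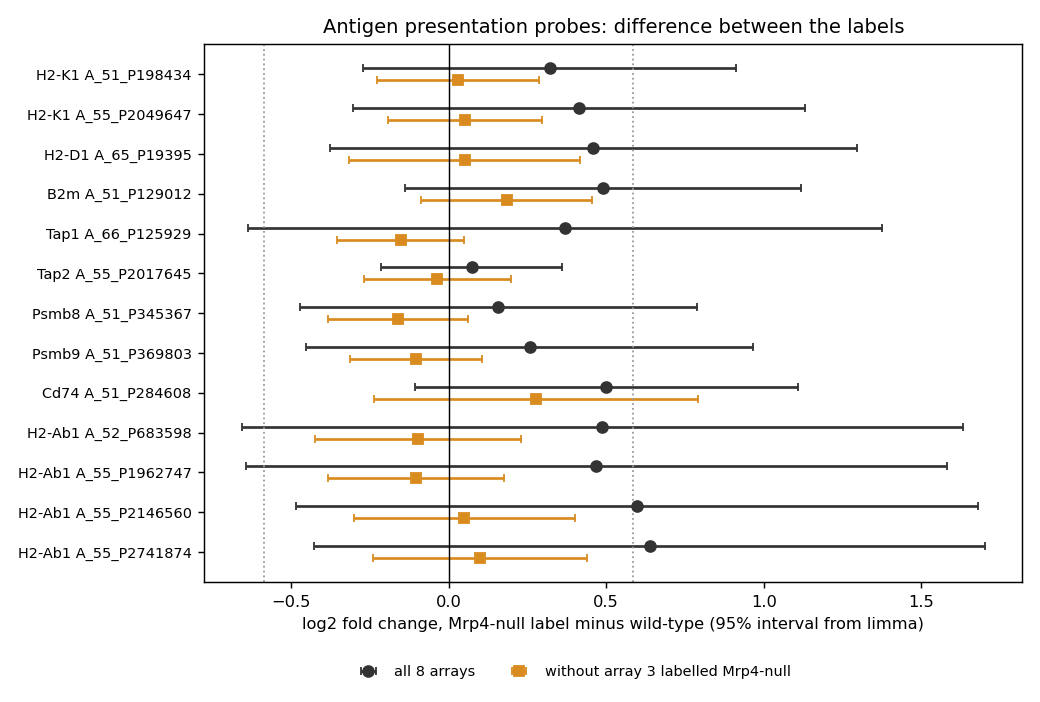
Log2 fold change (Mrp4-null label minus wild-type) of the 13 retained probes with its 95% interval from limma, for all 8 arrays (black circles) and without the third array labelled Mrp4-null (orange squares). Dotted lines mark 1.5-fold in either direction. The circles lie between 0.07 and 0.64, the squares between -0.16 and 0.28, and every interval includes 0.

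The members resembled each other through that array. Over the 78 pairs of retained probes, Pearson's r of the normalized log2 signal across the 8 arrays ran from 0.64 to 0.99, with a median of 0.94. Across the other 7 arrays it ran from -0.71 to 0.92, with a median of 0.13. The pairs share the same arrays and include probes of the same gene, so these values are a description.

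A wider list of 58 genes of antigen presentation was read in the same way, with 1 probe per gene, the retained one of highest mean signal. Of these, 47 were retained and 0 were called (0.545% of all probes), 2 had an unadjusted p under 0.05 (6.46% of all probes) and 3 had groups of arrays that did not overlap (4.79% of all probes). These shares are near those of all probes. The median log2 fold change was 0.07, and 0.04 without the third array labelled Mrp4-null. That array had the highest signal of 22 of the 47 genes (12.8% of all named genes, read the same way) and was more than 2-fold above every other array for 6 (0.826% of all named genes).

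**Figure D4:**
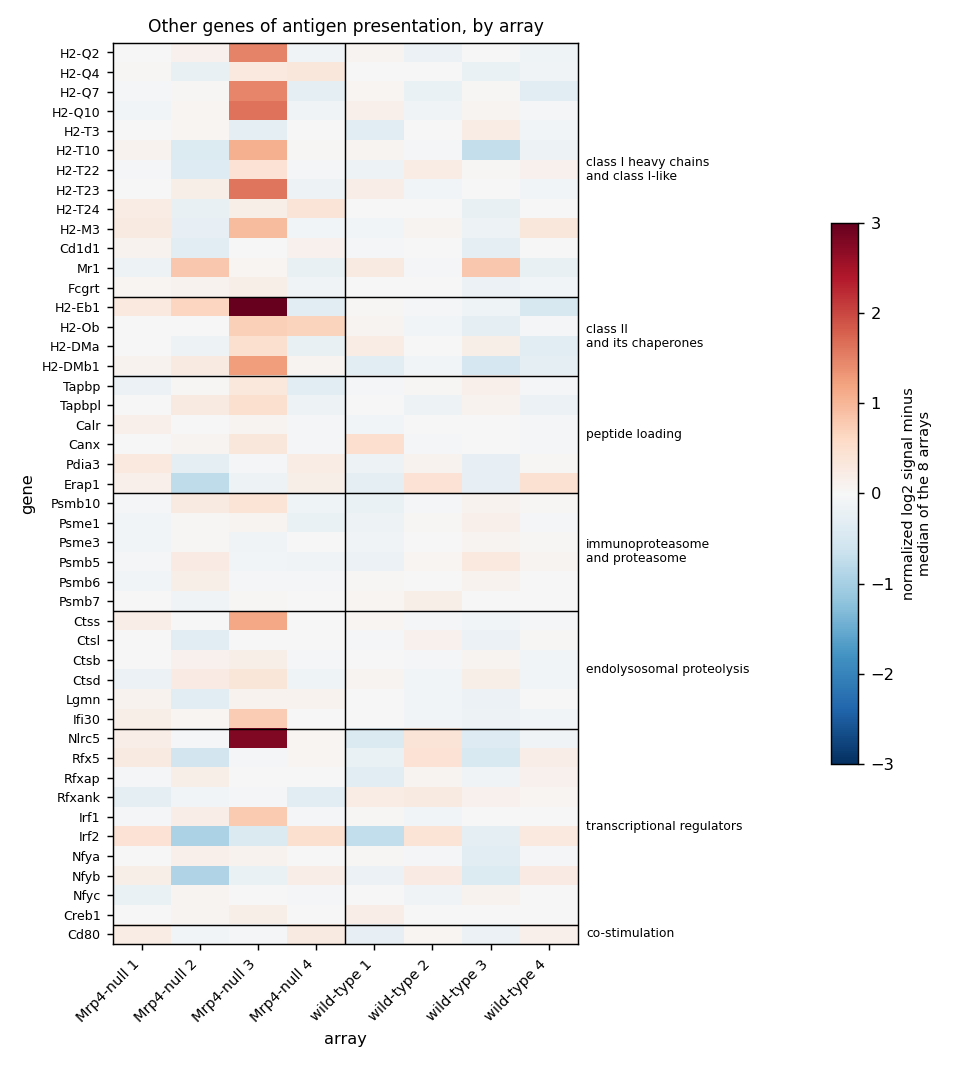
Normalized log2 signal of 46 retained genes of the wider list (rows, grouped by role) on the 8 arrays (columns), as the difference from the median of the 8 arrays. Red is above and blue below that median, and differences beyond 3 have the end color. The column of the third array labelled Mrp4-null holds the darkest red, in class I and class II genes and in Nlrc5, while peptide loading and proteasome genes stay pale.

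By role, 8 of 13 class I and class I-like genes and 4 of 4 class II genes or chaperones were highest on the third array. The counts were 2 of 6 for peptide loading, 1 of 6 for the proteasome, 4 of 6 for endolysosomal proteolysis, 3 of 11 for regulators and 0 of 1 for co-stimulation. The 6 genes above 2-fold, named after their values were seen, were the class I genes H2-Q2, H2-Q7, H2-Q10 and H2-T23, the class II beta chain H2-Eb1 and Nlrc5. H2-Eb1 reached a normalized log2 signal of 10.16 on that array, against 6.06 to 7.18 on the other 7. Whether these shares differ between the roles was not tested.

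Nlrc5, a transactivator of class I genes, reached a normalized log2 signal of 8.04 on the third array labelled Mrp4-null, against 4.83 to 5.64 elsewhere, a gap of 5.30-fold to the next. Its log2 fold change between the labels was 0.88 (SE 0.59, adjusted p = 1.00), 0.20 without that array and 0.50 with normexp background correction. Ciita, the master regulator of class II genes, was not retained and was well above background on 2 arrays labelled Mrp4-null and 1 wild-type array. On the array where Nlrc5 was highest its processed signal was 59.3, and elsewhere it was 2.70 to 21.5.

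Irf1, which acts downstream of interferon receptors, was highest on the same array, at a normalized log2 signal of 10.25. On the other 7 arrays Irf1 was at 9.37 to 9.65. Rfx5, a subunit of the factor that binds the X box of MHC promoters, was at 6.54 there, inside its range of 6.04 to 7.02. The log2 fold changes of Irf1 and Rfx5 between the labels were 0.23 (SE 0.18) and -0.06 (SE 0.23), each with adjusted p = 1.00. Without the third array labelled Mrp4-null the value for Irf1 was 0.04.

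The 3 genes whose groups did not overlap were H2-DMb1, Ifi30 and Rfxank (4.79% of all probes did not overlap). H2-DMb1, a chain of the peptide editor of class II molecules, had normalized log2 signals of 5.80, 5.98, 6.96 and 5.79 under the Mrp4-null label and of 5.36, 5.61, 5.21 and 5.42 in wild-type retinas. It was higher under the Mrp4-null label on every array, by 0.73 (SE 0.25), but did not pass the adjustment (limma adjusted p = 0.540). Ifi30, a lysosomal thiol reductase, had 7.92, 7.80, 8.50 and 7.76 against 7.73, 7.67, 7.59 and 7.66, a log2 fold change of 0.33 (SE 0.16, adjusted p = 0.836). Without the third array labelled Mrp4-null the log2 fold changes were 0.46 for H2-DMb1 and 0.16 for Ifi30, and with normexp background correction they were 0.35 and 0.22.

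Rfxank, which belongs to the same X box factor as Rfx5, went the other way. Its normalized log2 signals were 8.40, 8.60, 8.61 and 8.35 under the Mrp4-null label, against 8.89, 8.96, 8.82 and 8.74 in wild-type retinas. The log2 fold change was -0.36 (SE 0.09, limma adjusted p = 0.255), and it is the gene of the list with the smallest unadjusted p. Here the third array was not apart from the others with its label.

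Interferon response genes shared the highest array of the members. All 12 genes of the list were highest there, by 1.27-fold to 7.67-fold over the next array, and 8 of 12 by more than 2-fold. Oas1a, an antiviral oligoadenylate synthetase, had a normalized log2 signal of 9.77 there and of 6.53 to 6.83 on the others, and Isg15, a ubiquitin-like modifier, had 11.64 against 9.43 to 9.66. The summed level of the list was 14.92 on the log2 scale on that array, 13.76 to 13.85 on the other 3 with its label and 13.71 to 13.83 on the wild-type arrays. Between the labels, 0 of the 12 genes were called (0.545% of all probes).

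Myeloid and microglial markers were mostly highest on that array too. Of 9 retained markers, 8 were highest there, and 2 of them, Cd68 and C1qa, by more than 2-fold. Cd68, a lysosomal protein of phagocytes, had a normalized log2 signal of 9.12 against 7.39 to 7.67 on the other arrays. Its groups did not overlap, as for 4.79% of all probes (log2 fold change 0.56, SE 0.32, limma adjusted p = 0.942, and 0.18 without that array). Aif1, which encodes the microglial protein Iba1, had 8.84 against 7.48 to 7.92. P2ry12, a receptor of homeostatic microglia, was the exception at 5.49, inside its range of 5.11 to 6.05. The summed log2 level of these markers came to 14.43 on the third array labelled Mrp4-null, 13.77 to 14.12 on the other 3 with that label and 13.63 to 14.09 on the wild-type arrays. Itgam made up most of that sum, at 14.04 on the third array. That array exceeded the next by 1.95-fold for C1qb and 1.90-fold for Aif1. It did so by 1.26-fold for Cx3cr1, 1.24-fold for Csf1r, 1.17-fold for Itgam and 1.04-fold for Tmem119. Ptprc and Lyz2, the markers that were not retained, had processed signals of 87.7 and 141 there and reached at most 24.9 and 24.2 elsewhere. The part of myeloid cells in the members' levels was not tested.

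Markers of other cells were mixed. The T cell markers Cd3e and Cd4 were not highest on the third array, where their normalized log2 signals were 7.93 and 9.52, against 7.70 to 8.09 and 9.34 to 9.76 on the others, and Cd3g, Cd8a and Ms4a1 were well above background on no array. Nkg7, a marker of NK and cytotoxic T cells, was not retained, with a processed signal of 16.5 there and of 3.80 to 15.4 elsewhere. Among dendritic cell markers, Flt3 was the only one retained and was at 7.08, the lowest of the 8 arrays. Itgax exceeded background on the third array alone, with a processed signal of 76.2 there and of 2.87 to 7.79 elsewhere, and Zbtb46, also not retained, had 16.2 against 2.78 to 15.3. For the 5 endothelial, 5 lens and 6 pigment epithelium or ciliary body markers, 0 were highest on that array. The summed log2 level of the lens markers was 13.41 there, within 11.44 to 15.56 on the others. Most of that sum was Cryaa, at 13.17 there. Of 7 markers of retinal neurons and Muller glia, 2 were highest there, and their summed log2 level was 18.65 against 18.62 to 18.71. Grm6, a receptor of ON bipolar cells, had groups that did not overlap, as did 4.79% of all probes (log2 fold change 0.24, SE 0.07, limma adjusted p = 0.362). Between the labels, 0 genes of these lists were called (0.545% of all probes). All 5 lens markers had lower means under the Mrp4-null label, with a median log2 fold change of -1.44 against -0.01 over all probes. Of these lens markers, 1 had an unadjusted limma p under 0.05 (6.46% of all probes). Their summed log2 level was 11.44 to 14.46 under the Mrp4-null label and 12.96 to 15.56 in wild-type retinas. The endothelial markers had a median log2 fold change of -0.36, with 2 of 5 at an unadjusted limma p under 0.05 (6.46% of all probes). Their summed log2 level was 11.88 to 12.36 under the Mrp4-null label and 12.23 to 12.60 in wild-type retinas. Most of that sum was Kdr, at 12.08 on the third array labelled Mrp4-null. The part of these cells in the members' levels was not tested.

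**Figure D5:**
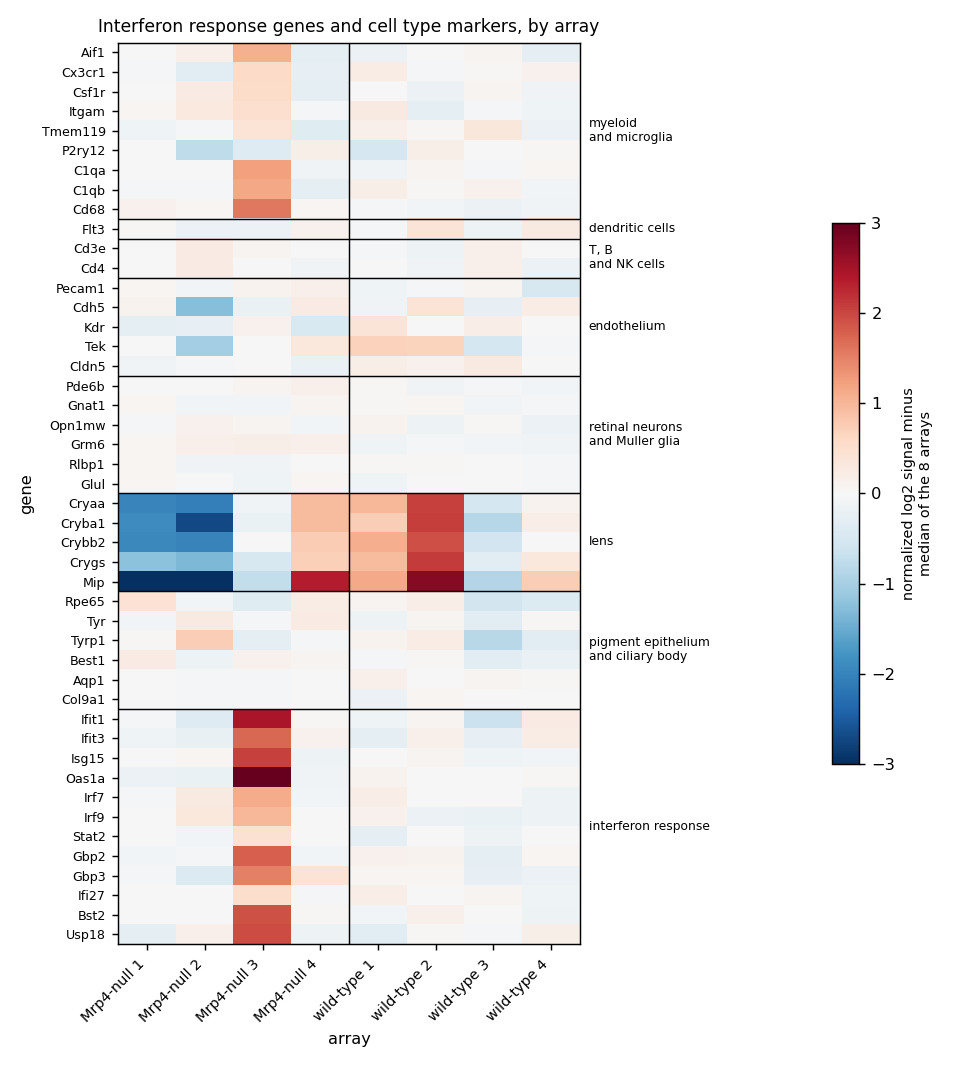
Normalized log2 signal of 46 retained marker genes (rows, grouped by list) on the 8 arrays (columns), as the difference from the median of the 8 arrays, with differences beyond 3 drawn in the end color. On the third array labelled Mrp4-null the 12 interferon response genes are all red and most myeloid markers are, while lymphocyte, endothelial and retinal markers are pale. Lens markers vary between other arrays.

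Likeness of the normalized log2 signal over the 8 arrays was ranked among 16079 named genes, with the members left out. The genes most like H2-K1 were Oas2 (Pearson's r = 0.994), Rsad2 (0.991), Phf11d (0.989), Lyn (0.985) and C1qa (0.979). For H2-Ab1 they were Axl (0.996), Oasl2 (0.990), Acp5 (0.990), H2-Q10 (0.989) and S100a6 (0.988). Each of these 10 genes was highest on the third array labelled Mrp4-null. Without that array, r was 0.91 for Oas2, 0.90 for Rsad2, 0.85 for Phf11d, 0.77 for Lyn and 0.62 for C1qa against H2-K1. Against H2-Ab1 it was 0.94 for Axl, 0.72 for Oasl2, 0.62 for Acp5, 0.64 for H2-Q10 and 0.80 for S100a6. Axl, a receptor tyrosine kinase, had a normalized log2 signal of 11.19 on that array and of 10.38 to 10.46 on the others, and Acp5, a phosphatase of osteoclasts and macrophages, had 8.77 against 4.36 to 5.01.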

How the data were processed

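Retinal RNA was labelled with Cy3 and hybridized to 8 arrays, 4 per label. The authors deposited the scanner output of Agilent Feature Extraction 11.0.1.1, whose processed intensity is background-subtracted within each array but not normalized between arrays, and 1 table of values. That table equals the mean processed intensity of each probe (100% of values within 0.1%), on a linear scale, uncentred, with medians of 60.2 to 86.3 per array. Spots marked as outliers (78 to 143 per array) were left out, and no spot was saturated.

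Spots of a probe were averaged as log2 of the intensity deposited by the authors. Retained were the 37085 of 56605 probes that exceeded background clearly, by the software's own flag, on all measured arrays of either group, given 3 measured arrays there and 2 in the other group. Values were quantile-normalized and compared with limma 3.58.1 in R 4.3.3 (lmFit and eBayes, genotype as the only term, Benjamini-Hochberg adjustment over all retained probes). Calls needed 1.5-fold or more in either direction and an adjusted p under 0.05. An adjusted p printed as 1.00 is 0.9999 before rounding. The fit was tested on simulated arrays of this comparison (37075 probes, 200 of them changed): limma found 72% of changes of 1 and 95% of changes of 2 on the log2 scale, with 7 false calls. The local pooled error test made 184 false calls there. Noise was drawn independently for each probe, and the changed probes were picked at random. These shares are therefore averages over all probes and do not give the power for the members, whose spread came from 1 shared array. The number of arrays limits the precision.

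Accessions matched the RefSeq gene table for 32994 probes (58.3%). That table is of GRCm38.p6 and the array design of an older build, so it served only for names, chromosomes and gene order. A list's summed level is the log2 of its summed normalized signal, so its brightest genes weigh most. The genes named are the members, the listed regulators, genes whose groups did not overlap, a few markers per list and the 5 genes most like H2-K1 and H2-Ab1, besides those said to be named after their values were seen. Members and lists were chosen with earlier results of these data known. Alternatives were other normalizations, background corrections, filters, tests and thresholds, the sample number as a block, Xist as a covariate and arrays left out. The local pooled error test pooled variances in bins of 0.01 of the values, smoothed with 10 degrees of freedom. Values of a few listed genes are not reported here.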

Additional observations from a re-analysis of the deposited data

Results flagged for a closer look

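In 26 of 98 groups of 4 arrays (normalized values of the retained member probes and of the other genes named with values, and the signal at the 75th percentile), 1 array lay apart from the other 3, with a gap to the nearest array that took more of the group's range than Dixon's critical value allows. Chance flags about 1 group in 20, and groups of genes that move together are not independent. In 21 of the 26 the array was the third labelled Mrp4-null, the highest of its group. The share of the range taken by the gap was 0.988 for Tap1, 0.887 for Psmb8 and 0.871 for Psmb9. It was 0.889 and 0.834 for the H2-K1 probes A_51_P198434 and A_55_P2049647, and 0.873 for the H2-Ab1 probe A_55_P2741874. Among genes of the wider list it was 0.909 for Nlrc5, 0.896 for H2-Q10, 0.856 for H2-Q2 and 0.841 for H2-DMb1. Of the interferon and myeloid genes, Oas1a stood at 0.972, Cd68 at 0.960, C1qa at 0.921 and Isg15 at 0.903. The genes named for their likeness to H2-K1 or H2-Ab1 were chosen for this pattern. Among them the share was 0.906 for Oas2, 0.941 for Rsad2, 0.942 for Phf11d, 0.953 for Lyn, 0.895 for Axl, 0.861 for Oasl2 and 0.854 for Acp5.

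The other 5 concerned other arrays. The first wild-type array was the highest of its group for the H2-K1 probe A_55_P2049647 (0.896), at a normalized log2 signal of 10.60 against 10.37 to 10.40. The third wild-type array was the highest for Tap2 (0.924), at 10.98 against 10.82 to 10.83. The second array labelled Mrp4-null was the highest of its group for the constitutive proteasome genes Psmb5 (0.863) and Psmb6 (0.915). The first array labelled Mrp4-null was the lowest of its group for Grm6 (0.887).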

How the results depend on the processing

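No alternative called any of the 10 genes changed, and Abcc4 kept its direction and call under each (log2 fold change 3.29 to 4.00). Members changed direction in 2 ways. Leaving out 1 array at a time gave log2 fold changes of -0.161 to 0.285 for Psmb8 and -0.11 to 0.41 for Psmb9. They were -0.15 to 0.55 for Tap1 and -0.036 to 0.145 for Tap2, and -0.10 to 0.78 and -0.10 to 0.73 for the H2-Ab1 probes A_52_P683598 and A_55_P1962747. Each lowest value came without the third array labelled Mrp4-null. With the local pooled error test, which compares group medians, the values were -0.16 for Psmb8, -0.052 for Psmb9 and -0.14 for Tap1, and the median over the member probes was 0.06. Under that test B2m was at 0.30, H2-D1 at 0.15, the H2-K1 probes at 0.05 and 0.16, and the H2-Ab1 probes at 0.03 to 0.21. Tap2 was at 0.05, and Cd74, at 0.57, was not lower than with limma (0.50). Without the 2 arrays of lowest signal, Tap1 was at 0.59, Psmb8 at 0.30 and Psmb9 at 0.42. Rfx5, at -0.06, changed direction in 3 of the left-out fits (range -0.218 to 0.095). Of the 47 retained genes of the wider list, 1 (H2-DMb1) passed a fold change of 1.5 with an unadjusted p, as did 554 of all 37085 probes (1.49%). The 202 probes called became 74 with Xist as a covariate, 128 without the 2 arrays of lowest signal, and 117 to 188 with 1 array left out, the lowest without the fourth wild-type array. The sample numbers did not pair the arrays: deviations of same-numbered arrays correlated at -0.29, -0.69, 0.03 and 0.41, and no array correlated best with its own number. With the number as a replicate block, 71 probes and 0 members were called. That block is balanced over the labels, so it could not change the members' log2 fold changes or their median of 0.46. The normexp alternative used median spot signals, as the files used here hold no mean signal. Signal limits H2-Aa, the weaker probes of Tap1 and Tap2, and Ciita, which were not retained.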
